A study of Mus musculus with 24 samples.

Results

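Axin2, Nkd1, Nkd2, Apcdd1, Tnfrsf19, Znrf3 and Rnf43 are inhibitors of Wnt signalling that act inside the cell or at its membrane, and most are known to be switched on by the signal they restrain. All 7 were found by symbol among the 13803 genes of the deposited expression table, and they are described here over the 24 libraries of the study. Messenger RNA was sequenced from stromal cells of embryonic mouse kidneys, sorted by flow cytometry for the FoxD1Cre-eGFP transgene, in which Cre recombinase and a green fluorescent protein are driven from Foxd1, a gene of the cortical stroma of the developing kidney. The libraries formed 8 groups of 3. They were beta-catSD cells on a C57BL/6 background at E12.5 and E13.5 (E, embryonic day), beta-catSO cells on a CD1 background at E12.5 and E13.5, wild-type cells on C57BL/6 at E12.5 and E13.5, and wild-type cells on CD1 at E12.5 and E13.5. The series compares beta-catenin that is stabilised (beta-catSO) or deficient (beta-catSD) with wild-type, and the sources used here do not name the alleles behind either. Wild-type libraries matched each mutant in strain and stage, so strain goes with the line and a difference between the beta-catSD and beta-catSO lines cannot be told apart from one of strain. The series design mentions 3 kidneys per genotype, and no label tells if the 3 libraries of a group are different kidneys, embryos or litters. The p-values below therefore measure the spread between these libraries, which may be technical.

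Canonical Wnt signals keep beta-catenin from being degraded, and beta-catenin then enters the nucleus and turns on target genes together with TCF and LEF factors. Several of those targets encode proteins that dampen the pathway again, which makes a negative feedback loop. Axin2 is a scaffold of the cytoplasmic complex that marks beta-catenin for degradation, and its paralogue Axin1 is the scaffold that most cells hold whether or not a signal arrives. Nkd1 and Nkd2 (naked cuticle homologues) bind the cytoplasmic transducer Dishevelled. Apcdd1 is a membrane glycoprotein that binds Wnt ligands and the co-receptor Lrp5, and Tnfrsf19 (Troy) is a receptor of the tumour necrosis factor family that inhibits Wnt signalling in intestinal stem cells. Znrf3 and Rnf43 are membrane ubiquitin ligases that remove Frizzled receptors from the cell surface, and R-spondins acting through Lgr receptors switch them off. In the embryonic kidney, Wnt signals pass between stroma, nephron progenitors and ureteric epithelium.

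On the GRCm38 (mm10) build with GENCODE M21 annotation, the genes lie apart from each other. Axin2 lies at chr11:108920349-108950783 on the + strand, Nkd1 at chr8:88521354-88594884 on the + strand, and Nkd2 at chr13:73818534-73847631 on the - strand. Tnfrsf19 lies at chr14:60963875-61046490 on the - strand, Znrf3 at chr11:5276324-5444847 on the - strand, and Rnf43 at chr11:87662722-87735539 on the + strand. All 7 are protein coding. Axin2 shares 209 exon bases with the antisense gene Gm11670, and the strand of counting is not given, so reads of that stretch cannot be told apart. None of the other 6 shares an exon base with another annotated gene, and none of the 7 had another locus with at least 95% identity over 200 nucleotides. RefSeq promoter windows (build GRCm38.p6, 250 bases before to 50 bases after a start site) are shown for Axin2, Nkd1, Nkd2 and Tnfrsf19, which each fell in beta-catSD and rose in beta-catSO in the means of the stages. They run 5′ to 3′ on the strand of the gene, with capitals marking a match to a short TCF/LEF motif. The table held windows for 5 of the 7 members, 7 windows in all.
Axin2, chr11:108920099-108920398, + strand: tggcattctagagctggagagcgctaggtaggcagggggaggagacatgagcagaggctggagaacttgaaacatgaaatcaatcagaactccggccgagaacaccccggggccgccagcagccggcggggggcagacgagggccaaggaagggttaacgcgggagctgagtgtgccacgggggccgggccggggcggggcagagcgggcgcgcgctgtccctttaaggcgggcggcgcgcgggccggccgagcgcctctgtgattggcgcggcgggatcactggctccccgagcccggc
Nkd1, chr8:88527383-88527682, + strand: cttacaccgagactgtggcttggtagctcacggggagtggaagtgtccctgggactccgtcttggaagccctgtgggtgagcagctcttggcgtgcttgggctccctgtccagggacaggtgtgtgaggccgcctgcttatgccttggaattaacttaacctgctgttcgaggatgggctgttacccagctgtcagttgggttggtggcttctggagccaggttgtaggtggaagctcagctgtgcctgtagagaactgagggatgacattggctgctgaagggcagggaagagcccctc
Nkd2, chr13:73847582-73847881, - strand: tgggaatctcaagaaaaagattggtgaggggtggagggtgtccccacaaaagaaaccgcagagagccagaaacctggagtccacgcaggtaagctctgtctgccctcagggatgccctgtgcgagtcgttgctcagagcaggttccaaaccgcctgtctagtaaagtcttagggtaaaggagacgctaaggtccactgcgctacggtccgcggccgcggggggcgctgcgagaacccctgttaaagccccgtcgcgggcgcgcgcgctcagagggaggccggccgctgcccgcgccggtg
Tnfrsf19, chr14:61037938-61038237, - strand: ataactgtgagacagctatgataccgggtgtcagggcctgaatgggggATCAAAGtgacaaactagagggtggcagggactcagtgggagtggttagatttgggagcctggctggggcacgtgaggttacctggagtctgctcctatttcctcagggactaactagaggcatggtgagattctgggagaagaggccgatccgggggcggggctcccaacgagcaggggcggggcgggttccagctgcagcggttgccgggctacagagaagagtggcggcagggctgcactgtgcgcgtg

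The motif searched was CTTTGAT on either strand (reverse complement ATCAAAG), together with its first 6 letters, CTTTGA, which it contains. Among all 32851 promoter windows, 3.73% held CTTTGAT and 16% held CTTTGA. Of the 7 member windows that were searched, 1 held a match, the Tnfrsf19 window printed above. There the 7-letter match ATCAAAG begins at position -202 from the start site and the 6-letter match TCAAAG, which lies inside it, at -201. A match or its absence describes these letters in this window and nothing about binding. The GC content was 70.0% in the Axin2 window, 58.3% in the Nkd1 window, 63.0% in the Nkd2 window and 60.7% in the Tnfrsf19 window, against a median of 52.7% over all windows. The Nkd1 window and the printed Tnfrsf19 window each surround a RefSeq start that lies inside the GENCODE span of the gene. The other Tnfrsf19 window, at chr14:61046806-61047105 and outside that span, is not printed and held no match.

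Levels below are log2 CPM, the base 2 logarithm of counts per mega-read (CPM) with the voom offset, as deposited, and a change is a difference of group means on that scale. A change was called at an adjusted p under 0.05 in limma's moderated test, with Benjamini-Hochberg adjustment over all 13803 genes. Depth, here the scaled library size recovered from the deposited values, ran from 6.18 to 21.2 M (mega) reads per library. Markers of stroma were read in every library (8 of 8), while Foxd1 itself was lower in the beta-catSO libraries (7.05 to 8.13 log2 CPM, against 8.26 to 9.05 in CD1 wild-type libraries). Whole-gene Ctnnb1 levels, between 10.34 and 10.86 log2 CPM in all groups, do not check the genotype labels, since neither allele is given. Libraries also differed in traces of other cells. The summed CPM of 10 ureteric epithelium markers was 330 in CD1 wild-type E13.5 replicate 1 and 45.5 to 128 in the other 23 libraries, and the liver gene Alb was highest in C57BL/6 wild-type E12.5 replicate 3 (10.44 log2 CPM) and CD1 wild-type E13.5 replicate 3 (8.18). Results are given below with those 3 libraries left out wherever that changed a call. Leaving them out keeps only replicate 2 of CD1 wild-type at E13.5. Comparisons that use that group then rest on 1 wild-type library at that stage, so no p-value is given for them.

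In beta-catSO stroma, 6 of the 7 inhibitors rose at both stages, by 3.13 to 31.1 times, and only Rnf43 did not pass the test. In beta-catSD stroma, Axin2, Apcdd1 and Tnfrsf19 fell at both stages and Nkd2 at E12.5, by 1.87 to 3.90 times, while Nkd1 fell by 1.23 times in the mean of the stages. Znrf3 rose in beta-catSO cells and was not called in beta-catSD cells. In a bulk sample, fewer cells with a transcript and less of it in each cell cannot be told apart.

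**Figure D1:**
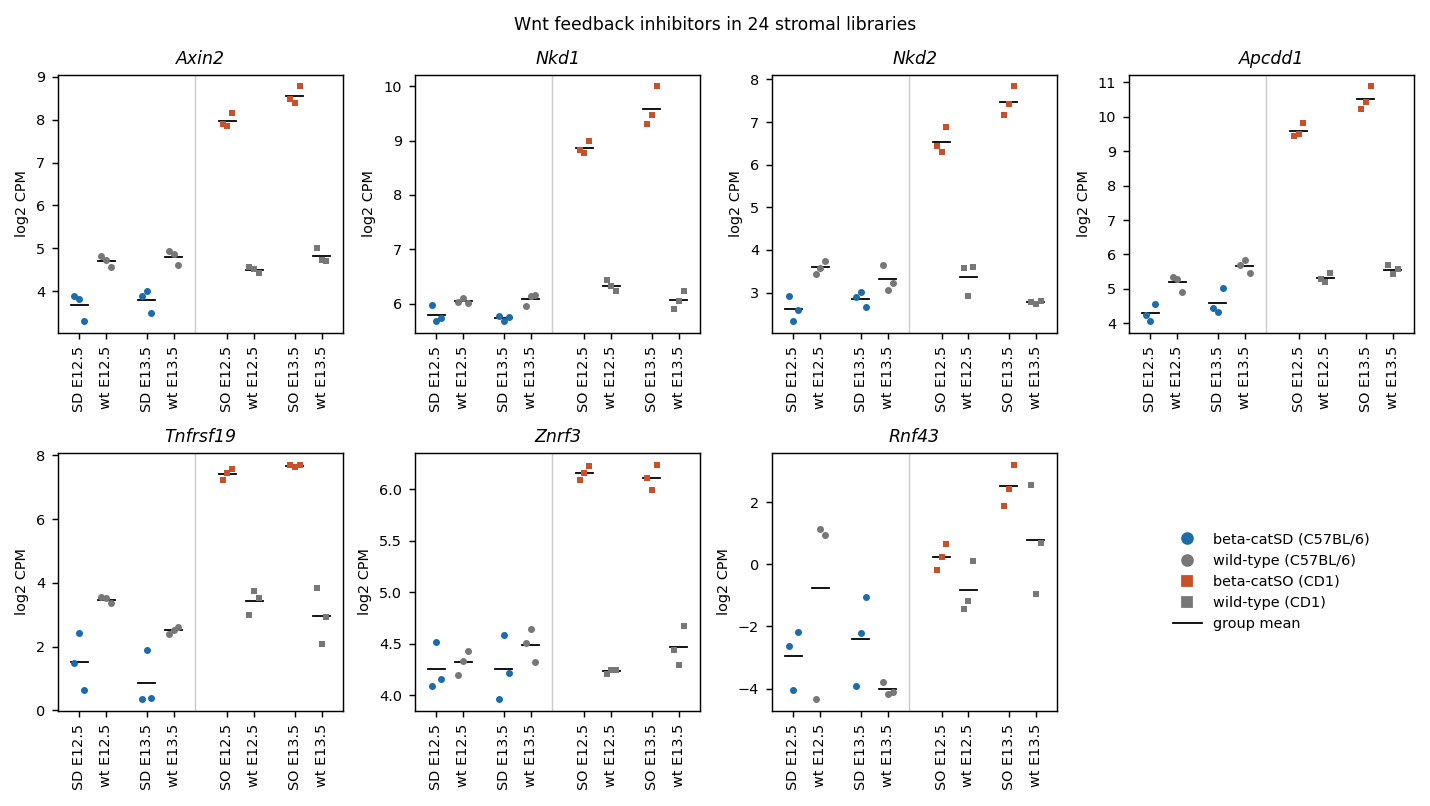
Level of each inhibitor in log2 CPM (vertical axis) in each of 24 libraries (points), by genotype and stage, with a line at the mean of each group of 3 (SD, beta-catSD; SO, beta-catSO; wt, wild-type). Libraries with 0 reads sit where the voom offset puts them. In the panels for Axin2, Nkd1, Nkd2, Apcdd1, Tnfrsf19 and Znrf3 all beta-catSO points lie above all wild-type points of the same strain and stage, while in the Rnf43 panel the groups overlap.

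Counted over the members, 4 of 7 were called lower in beta-catSD cells at E12.5, where 0.732% of all genes were called lower. At E13.5 the count was 3 of 7, against 2.07% of all genes, and in the mean of the stages 5 of 7, against 3.71%. In beta-catSO cells 6 of 7 were called higher at E12.5, against 5.17% of all genes, 6 of 7 at E13.5, against 8.53%, and 6 of 7 in the mean of the stages, against 10.2%. No member was called in the opposite direction in these 6 comparisons. The median change of the members was -0.71 in the mean of the beta-catSD stages and 3.60 in the mean of the beta-catSO stages, while the median of all genes was 0.00 in both. Counted by overlap of the libraries instead, all 3 beta-catSD libraries lay below all 3 wild-type libraries for 5 of 7 members at E12.5 (7.35% of all genes) and the same 5 of 7 at E13.5 (11.1%), namely Axin2, Nkd1, Nkd2, Apcdd1 and Tnfrsf19. All 3 beta-catSO libraries lay above all 3 wild-type libraries for 6 of 7 members at E12.5 (17.1% of all genes) and at E13.5 (14.8%), with Rnf43 the exception at both.

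Axin2, the scaffold of the degradation complex, moved by similar amounts at both stages. At E12.5 it stood at 3.88, 3.82 and 3.30 log2 CPM in the beta-catSD libraries, against 4.81, 4.72 and 4.56 in C57BL/6 wild-type libraries. At E13.5 the beta-catSD libraries held 3.89, 4.0 and 3.48, against 4.94, 4.86 and 4.60 in wild-type. Replicate 3 was the lowest beta-catSD library at each stage, and the groups did not overlap at either. In the beta-catSO line Axin2 reached 7.90, 7.85 and 8.15 log2 CPM at E12.5, against 4.56, 4.52 and 4.42 in CD1 wild-type libraries, and 8.48, 8.38 and 8.78 at E13.5, against 5.00, 4.73 and 4.71 in CD1 wild-type. All 12 mutant libraries of the 2 lines thus lay outside the range of their wild-type libraries, below it in beta-catSD and above it in beta-catSO. The change in beta-catSD cells was -1.03 ± 0.15 (SE) at E12.5 (adjusted p = 0.000553) and -1.01 ± 0.15 at E13.5 (adjusted p = 0.000495), which is 2.04 and 2.01 times lower. In beta-catSO cells it was 3.47 ± 0.15 at E12.5 (adjusted p = 4.27e-13) and 3.73 ± 0.15 at E13.5 (adjusted p = 5.85e-14), which is 11.1 and 13.3 times higher. These Axin2 calls held in every alternative fit that was run, including those with 1 library left out.

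Axin1, the paralogue that is not counted among the targets of the signal, was set beside Axin2 in the same library, which takes library size out of the comparison. Axin1 lay between 6.38 and 6.71 log2 CPM in all 24 libraries and was not called in any of the 11 comparisons (adjusted p between 0.627 and 0.995). Within a library, Axin2 minus Axin1 was -3.12 to -2.76 in beta-catSD libraries and -1.88 to -1.70 in wild-type libraries at E12.5, and -2.98 to -2.45 against -2.01 to -1.46 at E13.5. In the beta-catSO line the difference was 1.19 to 1.53 at E12.5, against -2.14 to -1.96 in wild-type, and 1.83 to 2.25 at E13.5, against -1.91 to -1.50 in wild-type. The Axin2 level in CPM therefore stood below those of Axin1 in all wild-type and beta-catSD libraries and above them in all beta-catSO libraries, on a scale that is not corrected for length. Averaged over stages, the difference changed by -1.02 in beta-catSD (exact permutation test over libraries within stages, 2-sided, p = 0.005, adjusted over 6 tests 0.01) and by 3.58 in beta-catSO (exact p = 0.005, adjusted 0.01). With 400 arrangements, 0.005 is the smallest p this test can give.

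**Figure D2:**
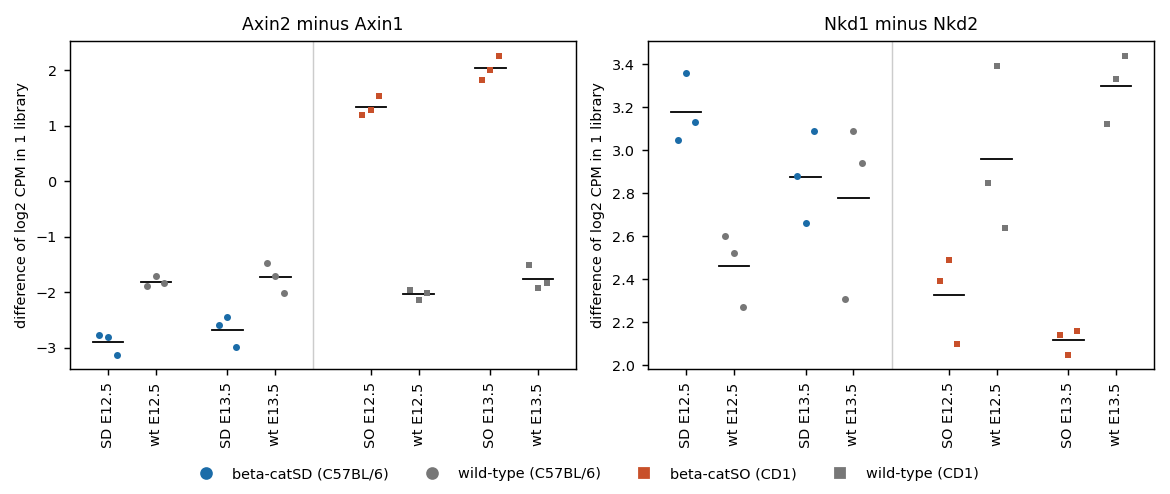
Difference of log2 CPM between paralogues within each library (vertical axis) for Axin2 minus Axin1 (left) and Nkd1 minus Nkd2 (right), by genotype and stage, with a line at each mean of 3 libraries (SD, beta-catSD; SO, beta-catSO; wt, wild-type). Axin2 minus Axin1 lies between 1.19 and 2.25 in beta-catSO libraries and at -1.46 or less in all other libraries, and Nkd1 minus Nkd2 lies at 2.49 or less in beta-catSO libraries, below the 2.64 or more of CD1 wild-type.

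The Dishevelled-binding genes Nkd1 and Nkd2 both rose in beta-catSO cells, Nkd2 by more. Nkd1 stood at 8.82, 8.78 and 8.99 log2 CPM in the beta-catSO libraries at E12.5, against 6.43, 6.32 and 6.24 in CD1 wild-type. At E13.5 it reached 9.30, 9.47 and 10.00 in beta-catSO, against 5.90, 6.05 and 6.24 in wild-type. Replicate 3 was the highest beta-catSO library at both stages, and no library overlapped between genotypes. The changes were 2.54 ± 0.13 at E12.5 (adjusted p = 3.07e-12) and 3.53 ± 0.13 at E13.5 (adjusted p = 4.57e-15), or 5.81 and 11.6 times. Nkd2 stood at 6.43, 6.29 and 6.89 log2 CPM in beta-catSO libraries at E12.5, against 3.58, 2.93 and 3.60 in wild-type. At E13.5 it stood at 7.16, 7.42 and 7.84 in beta-catSO, against 2.78, 2.72 and 2.80 in wild-type. Again no library overlapped, and Nkd2 was 9 times higher at E12.5 (3.17 ± 0.21, adjusted p = 6.72e-10) and 26.1 times higher at E13.5 (4.71 ± 0.21, adjusted p = 2.68e-13).

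In beta-catSD cells the changes of Nkd1 and Nkd2 were smaller than in beta-catSO cells. Nkd1 stood at 5.98, 5.69 and 5.73 log2 CPM in beta-catSD libraries at E12.5, against 6.04, 6.10 and 6.02 in C57BL/6 wild-type, and at 5.77, 5.68 and 5.76 at E13.5, against 5.96, 6.14 and 6.16. The groups did not overlap, and at E12.5 the nearest libraries almost touched. The change was -0.26 ± 0.13 at E12.5 (adjusted p = 0.365) and -0.35 ± 0.13 at E13.5 (adjusted p = 0.145), and only the mean of the stages passed the test (-0.30 ± 0.09, adjusted p = 0.0371). That call was lost when 1 of 10 of the 12 libraries of the line was left out (adjusted p up to 0.0891), without the mean-variance trend (0.076) and with voom precision weights (0.232). Nkd2 stood at 2.93, 2.33 and 2.60 log2 CPM in beta-catSD libraries at E12.5, against 3.44, 3.58 and 3.75 in wild-type, and at 2.89, 3.02 and 2.67 at E13.5, against 3.65, 3.05 and 3.22. Its groups were well apart at E12.5 and almost touched at E13.5. The change was -0.97 ± 0.21 at E12.5 (adjusted p = 0.0179), -0.44 ± 0.21 at E13.5 (adjusted p = 0.342) and -0.71 ± 0.15 in the mean of the stages (adjusted p = 0.00437). The E12.5 call was lost without beta-catSD replicate 2 (adjusted p = 0.0822) or 3 (0.072), without wild-type replicate 2 (0.0617) or 3 (0.06), and without the 3 wild-type libraries named above (0.0608). With voom weights the Nkd2 calls at E12.5 (adjusted p = 0.267) and in the mean of the stages (0.223) were lost too.

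Within a library, the difference Nkd1 minus Nkd2 was 2.10 to 2.49 in beta-catSO libraries and 2.64 to 3.39 in CD1 wild-type libraries at E12.5, and 2.06 to 2.16 against 3.12 to 3.44 at E13.5. Nkd2 thus stood nearer to Nkd1 in every beta-catSO library than in any CD1 wild-type library of the same stage. The mean change over stages was -0.90 (exact permutation test, 2-sided, p = 0.005, adjusted over 6 tests 0.01). In the beta-catSD line the difference was 3.05 to 3.36 in beta-catSD against 2.27 to 2.60 in wild-type at E12.5, and 2.66 to 3.08 against 2.31 to 3.10 at E13.5. Its mean change of 0.40 did not pass after adjustment (exact p = 0.05, adjusted 0.075), but passed at 0.48 (exact test, adjusted p = 0.0375) without C57BL/6 wild-type E13.5 replicate 2. It was 0.71 at E12.5 and 0.09 at E13.5.

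At the membrane, Apcdd1, a gene of chromosome 18 whose protein binds Wnt ligands and Lrp5, had the largest rise of the 7 in beta-catSO cells. It stood at 9.43, 9.49 and 9.82 log2 CPM in beta-catSO libraries at E12.5, against 5.29, 5.20 and 5.47 in CD1 wild-type. At E13.5 it reached 10.23, 10.44 and 10.89 in beta-catSO, against 5.69, 5.42 and 5.57 in wild-type. The groups were far apart at both stages, with replicate 3 the highest beta-catSO library at each. The rise was 19.2 times at E12.5 (4.26 ± 0.18, adjusted p = 2.49e-13) and 31.1 times at E13.5 (4.96 ± 0.18, adjusted p = 4.57e-15). In the beta-catSD line Apcdd1 stood at 4.23, 4.06 and 4.56 log2 CPM at E12.5, against 5.35, 5.29 and 4.92 in wild-type, and at 4.44, 4.31 and 5.01 at E13.5, against 5.68, 5.84 and 5.46. All beta-catSD libraries lay below all wild-type libraries, with replicate 3 the highest of the mutants at each stage. It fell by 0.90 at E12.5 (SE 0.18, adjusted p = 0.00827) and by 1.08 at E13.5 (SE 0.18, adjusted p = 0.000983). The E12.5 call was lost without wild-type replicate 1 (adjusted p = 0.051), and with voom weights the adjusted p was 0.0994 at E12.5 and 0.0618 at E13.5.

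Tnfrsf19, the Troy receptor, had the largest fall of the called members in beta-catSD cells and the widest spread among them. It stood at 1.48, 2.43 and 0.62 log2 CPM in beta-catSD libraries at E12.5, against 3.55, 3.51 and 3.35 in C57BL/6 wild-type, and at 0.34, 1.88 and 0.38 at E13.5, against 2.39, 2.52 and 2.62. Replicate 2 was the highest beta-catSD library at both stages and still lay below every wild-type library. These levels rest on 97 reads summed over the beta-catSD libraries at E12.5, against 381 in wild-type, and 43 at E13.5, against 140. Tnfrsf19 fell by 1.96 at E12.5 (SE 0.41, adjusted p = 0.0114) and by 1.64 at E13.5 (SE 0.41, adjusted p = 0.0235), and by 1.80 in the mean of the stages (SE 0.29, adjusted p = 0.000285). The E12.5 call was lost without beta-catSD replicate 3 (adjusted p = 0.0987) or wild-type replicate 1 (0.0506) or 2 (0.0511). The E13.5 call was lost without beta-catSD replicate 1 (0.136) or 3 (0.124) or any 1 of the wild-type replicates (0.0513 to 0.0936), without the mean-variance trend (0.0617), with the libraries of the line alone (0.075) and with voom weights (0.314). The call in the mean of the stages held in each of those fits. In beta-catSO libraries Tnfrsf19 stood at 7.24, 7.46 and 7.58 log2 CPM at E12.5, against 3.00, 3.73 and 3.52 in CD1 wild-type. At E13.5 the beta-catSO libraries held 7.71, 7.62 and 7.70, against 3.85, 2.08 and 2.93 in wild-type. The 3 beta-catSO libraries at E13.5 lay close together while the wild-type ones were widely spread. The rise was 16.1 times at E12.5 (4.01 ± 0.41, adjusted p = 5.2e-07) and 26.5 times at E13.5 (4.73 ± 0.41, adjusted p = 1.68e-08).

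Of the ligases that clear Frizzled, Znrf3 rose in beta-catSO cells by the smallest amount among the 6 called members. It stood at 6.09, 6.16 and 6.23 log2 CPM in beta-catSO libraries at E12.5, against 4.21, 4.25 and 4.25 in CD1 wild-type, and at 6.11, 5.99 and 6.24 at E13.5, against 4.44, 4.29 and 4.67. The groups stood well apart and the beta-catSO level was much the same at both stages. The change was 1.92 ± 0.15 at E12.5 (adjusted p = 4.7e-09) and 1.65 ± 0.15 at E13.5 (adjusted p = 2.48e-08), or 3.79 and 3.13 times. In beta-catSD libraries Znrf3 stood at 4.09, 4.52 and 4.16 at E12.5, against 4.20, 4.33 and 4.43 in C57BL/6 wild-type, and at 3.96, 4.59 and 4.22 at E13.5, against 4.51, 4.64 and 4.32. The groups overlapped at both stages, with beta-catSD replicate 2 the highest mutant each time. The change in the mean of the stages was -0.15 ± 0.10 (adjusted p = 0.465), with a 95% interval from -0.36 to 0.06. That interval does not reach the falls of Axin2, Apcdd1 or Tnfrsf19, but it includes that of Nkd1 (-0.30). The difference between genes was not tested.

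Rnf43, the paralogue of Znrf3, was near the limit of detection in most libraries, so its values are given as reads recovered from the deposited values. At E12.5 the beta-catSD libraries held 2, 0 and 1 reads, against 0, 26 and 23 in C57BL/6 wild-type, and at E13.5 0, 1 and 3 reads, against 0, 0 and 0. The beta-catSO libraries held 5, 7 and 10 reads at E12.5, against 3, 4 and 10 in CD1 wild-type, and 45, 114 and 116 reads at E13.5, against 98, 3 and 12. The groups overlapped in all 4 comparisons, in beta-catSD at E13.5 through a beta-catSD library that was at 0 like the 3 wild-type ones. Summed over a group and scaled by depth, beta-catSD at E12.5 held 3 reads, 14.5 times fewer than the 49 of wild-type (95% counting interval 4.68 to 72.8), a ratio that rests on 2 of the 3 wild-type libraries. The beta-catSO to wild-type ratio was 1.99 at E12.5 (interval 1.01 to 3.98) and 1.64 at E13.5 (1.32 to 2.07). These intervals cover counting error only, while the libraries of a group spread further than that. In the fit, Rnf43 was called in none of the 6 genotype comparisons, with a change of 1.41 ± 0.80 in the mean of the beta-catSO stages (adjusted p = 0.252, 95% interval -0.25 to 3.07) and -0.28 ± 0.80 in that of beta-catSD (adjusted p = 0.896). Its change in beta-catSD at E12.5 was -2.20 ± 1.14 (adjusted p = 0.408) and became -3.99 (adjusted p = 0.0429) without wild-type replicate 1, the library with 0 reads. Over fits that left out 1 library it ran from -3.99 to -1.25. It was -1.12 with the ureteric markers described next as a covariate (adjusted p = 0.686) and -1.35 (adjusted p = 0.658) without 3 wild-type libraries chosen on their Alb and ureteric marker levels.

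Several libraries with many Rnf43 reads also held more ureteric epithelium markers than others of their group. CD1 wild-type E13.5 replicate 1, with 98 Rnf43 reads, had a summed CPM of 330 over the 10 ureteric markers, against 54.8 and 63.2 in the other two libraries of its group. In C57BL/6 wild-type at E12.5 the libraries with 26 and 23 reads had sums of 66.6 and 85.7, and the one with 0 reads had 46.0. In beta-catSO at E13.5 the sums were 75.8, 106 and 128, in the order of the read counts 45, 114 and 116. CD1 wild-type E12.5 replicate 2, with a sum of 74.1, held 4 Rnf43 reads. Other marker sums differed as well. CD1 wild-type E13.5 replicate 1 had an endothelial sum of 648, against 69.2 and 36.4, and a nephron progenitor sum of 398, against 130 and 119. In C57BL/6 wild-type at E12.5 the endothelial sums were 148 and 126 beside 26 and 23 reads, and 36.2 beside 0. In beta-catSO at E13.5 they were 301, 197 and 299, not in the order of the reads. The source of the Rnf43 reads was not tested. In a library, 0 to 5 of the 10 ureteric markers were at 0 reads. The 10 include Wnt11, which rose by 0.80 in the mean of the beta-catSO stages, so their sum holds a gene that moved with genotype. The median change of the 10 ureteric markers there was -0.74. The covariate was the mean log2 CPM of these 10 markers, which is not the same measure as the sum. By that mean, beta-catSO E13.5 replicate 1 (sum 75.8) stood at 0.31 and CD1 wild-type E12.5 replicate 2 (sum 74.1) at 2.37. With this covariate, the change of Rnf43 in the mean of the beta-catSO stages was 1.95 (limma, adjusted p = 0.0513). Without the 3 wild-type libraries named above it was 2.27, and 3.46 at E13.5 alone, and neither was called. The only CD1 wild-type library then left at E13.5 held 3 Rnf43 reads. All calls of the other 6 members stayed as they were with that covariate. Within a library, Rnf43 minus Znrf3 changed by -0.13 in beta-catSD (exact permutation test, p = 0.91, adjusted 0.91) and by -0.37 in beta-catSO (exact p = 0.53, adjusted 0.636). On the log2(CPM + 1) scale the beta-catSO difference was -0.93 and passed (exact test, adjusted p = 0.045).

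**Figure D3:**
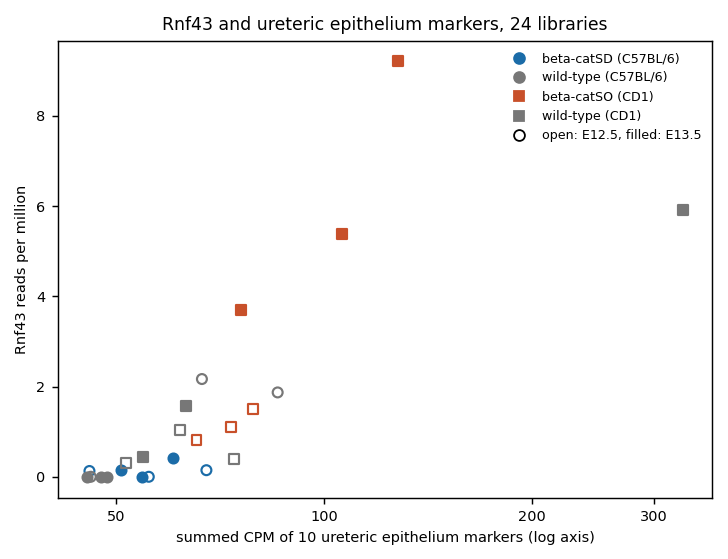
Rnf43 reads per mega-read of depth (vertical axis) against the summed CPM of 10 ureteric epithelium markers (horizontal log axis) in each of 24 libraries, open at E12.5 and filled at E13.5. CD1 wild-type E13.5 replicate 1 lies far to the right at a sum of 330, and the 3 beta-catSO libraries at E13.5 lie at 75.8 to 128 and above most other points.

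The stages were then compared with each other. In the beta-catSO line the effect on Nkd1 was larger at E13.5 than at E12.5 by 0.99 ± 0.18 (adjusted p = 0.00644), and that on Nkd2 by 1.54 ± 0.30 (adjusted p = 0.0129). These were 2 of 7 members called, where 0.717% of all genes were called higher. By group, Nkd2 averaged 7.47 log2 CPM in beta-catSO at E13.5 and 6.54 at E12.5, and 2.77 in CD1 wild-type at E13.5 and 3.37 at E12.5. Nkd1 averaged 9.59 in beta-catSO at E13.5 and 8.87 at E12.5, and 6.06 in wild-type at E13.5 and 6.33 at E12.5. The Nkd2 call was lost with voom weights (adjusted p = 0.0718), and the Nkd1 call held there. Without the 3 wild-type libraries, which leaves 1 CD1 wild-type library at E13.5, the Nkd2 difference was 1.58 and was not called. Differences for the other members did not pass: 0.70 ± 0.25 for Apcdd1 (adjusted p = 0.183), 0.26 for Axin2 (0.593), 0.71 for Tnfrsf19 (0.585), 0.66 for Rnf43 (0.892) and -0.28 for Znrf3 (0.55). In the beta-catSD line 0 members and 0% of all genes were called between stages in limma's test, while 1 member (Rnf43) and 753 genes had an unadjusted p under 0.05.

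**Figure D4:**
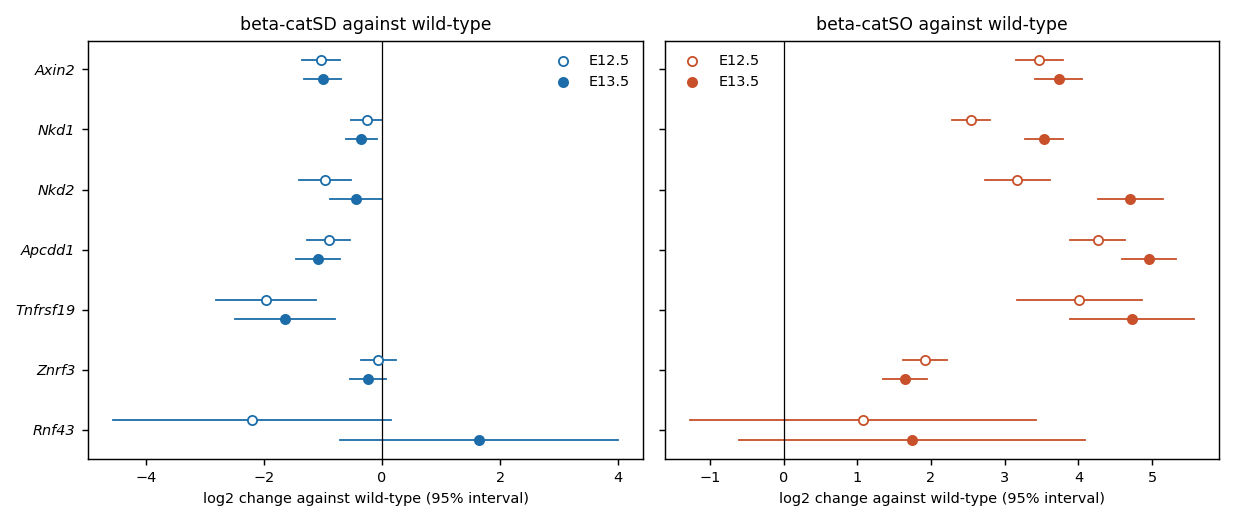
Log2 change against wild-type of the same strain and stage (horizontal axis) with its 95% interval, for beta-catSD (left) and beta-catSO (right), open at E12.5 and filled at E13.5. For Nkd1 and Nkd2 the beta-catSO intervals of the stages do not overlap, and the Rnf43 intervals include 0 throughout.

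Among wild-type cells no member passed the test between stages or strains. Between E13.5 and E12.5, 0 of 7 were called in C57BL/6, where 3.96% of all genes were, and 0 of 7 in CD1, where 5.42% were. Between C57BL/6 and CD1, 0 of 7 were called, against 4.46% of all genes. At an unadjusted p under 0.05 the member counts were 3, 2 and 2. The largest of these changes were those of Rnf43, -3.27 between stages in C57BL/6 (adjusted p = 0.105) and -2.36 between C57BL/6 and CD1 (adjusted p = 0.0949), and both passed the test once 1 library was left out. The stage change became -5.07 (adjusted p = 0.0129) without C57BL/6 wild-type E12.5 replicate 1, and the strain change became -2.78 (adjusted p = 0.0428) without replicate 3 of that group. Leaving out 1 library, the stage change ran from -5.07 to -2.32 and the strain change from -2.84 to -1.46. With the ureteric covariate they were -2.49 (adjusted p = 0.142) and -1.23 (adjusted p = 0.507). Without the 3 wild-type libraries the stage change was -2.43 (adjusted p = 0.243). The strain change was then -1.92, with 1 CD1 wild-type library left at E13.5, and was not called. Nkd2 in CD1 changed by -0.60 between stages (adjusted p = 0.103) and by -0.82 (adjusted p = 0.0458) without CD1 wild-type E12.5 replicate 2.

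Per kilobase of annotated exon, Nkd1 was the most abundant inhibitor in wild-type stroma, with a median of 3.94 log2 CPM per kilobase (range 3.71 to 4.24 over 12 libraries), apart from all others. Axin2 followed at 2.26 (1.96 to 2.54) and Apcdd1 at 1.75 (1.23 to 2.16), with ranges that overlap. Znrf3 at 1.34 (1.22 to 1.69), Nkd2 at 1.06 (0.45 to 1.48) and Tnfrsf19 at 0.93 (-0.17 to 1.61) overlapped each other and Apcdd1, and Rnf43 lay lowest at -3.77 (-7.06 to -0.15). In the 6 beta-catSO libraries the order of the medians was Nkd1 at 6.96, Apcdd1 at 6.34, Axin2 at 5.81, Tnfrsf19 at 5.35, Nkd2 at 4.76, Znrf3 at 3.15 and Rnf43 at -1.44. Apcdd1 stood above Axin2 there, though the ranges overlapped (5.74 to 7.21 for Apcdd1, 5.39 to 6.31 for Axin2), and Znrf3 lay below all but Rnf43. The order of these genes depends on the exon length used, which covers all annotated exons. In mean CPM, Apcdd1 stood above Axin2 in every wild-type group too (40 against 22.6 in CD1 at E12.5). In the 6 beta-catSD libraries the medians ran from 3.55 for Nkd1 through 1.39 for Axin2, 1.21 for Znrf3, 0.69 for Apcdd1 and 0.51 for Nkd2 to -1.19 for Tnfrsf19 and -5.14 for Rnf43. By size of the rise in the mean of the beta-catSO stages, Apcdd1 ranked 23, Tnfrsf19 31, Nkd2 43, Axin2 62, Nkd1 100, Znrf3 261 and Rnf43 371 of 13803 genes. By size of the fall in beta-catSD, Tnfrsf19 ranked 204, Axin2 543, Apcdd1 563, Nkd2 805 and Nkd1 1590, and Rnf43 and Znrf3, which were not called, ranked 1696 and 2880.

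Genes whose 8 group means followed a member most closely were found by the root-mean-square difference of group means, each gene centred on its own mean, among 12196 candidates. Nearest to Axin2 were Dach1 (0.317 log2 units), Fhod3 (0.330) and Dach2 (0.344), and nearest to Nkd2 were Dach2 (0.181), Ntng1 (0.342) and Trps1 (0.391). Nkd1 was followed by Fhdc1 (0.245), Ntng1 (0.246) and Gata2 (0.275), so Ntng1 and Dach2 each stood among the nearest genes of 2 members. Apcdd1 was followed by Ism1 (0.294), Fzd10 (0.481) and Edar (0.521), and Tnfrsf19 by Lrriq1 (0.276), Gria2 (0.525) and Tubb3 (0.544). Znrf3 had the smallest distances, Slc4a4 (0.123), Nectin1 (0.132) and Kcnmb2 (0.145). It also had the smallest changes of the members compared, and the distance is not scaled to their size. Of the genes named as nearest, only Dach2, Nectin1 and Lrriq1 were called in the mean of the beta-catSD stages. All but Kcnmb2 were called in that of beta-catSO. Among the members, Axin2 and Nkd2 were the closest pair (0.341), ahead of the paralogues Nkd1 and Nkd2 (0.387), while Znrf3 and Tnfrsf19 were the farthest apart (1.65). Genes needed a mean log2 CPM above 0 for this comparison, and Rnf43 lay below that level. Several of the nearest genes lay little above it, namely Kcnmb2 (0.03), Lrriq1 (0.09), Tubb3 (0.60), Gria2 (0.65) and Edar (0.94).

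The other genes of the pathway were counted by list, in the means of the stages. Over all genes, 3.46% were called higher and 3.71% lower in beta-catSD, and 10.2% higher and 8.32% lower in beta-catSO. Of 21 measured receptors and members of the R-spondin system (22 listed), 4 rose and 4 fell in beta-catSD, and 7 rose and 3 fell in beta-catSO. Lgr4, the receptor through which R-spondins silence Znrf3 and Rnf43, fell by 0.82 in beta-catSD (adjusted p = 1.62e-07) and rose by 1.06 in beta-catSO (adjusted p = 1.92e-10). Rspo3, an R-spondin ligand, changed the other way, by 0.96 in beta-catSD (adjusted p = 2.79e-06) and by -0.35 in beta-catSO (adjusted p = 0.0205). The Frizzled receptors that the ligases clear were divided as well. Fzd1 fell by 0.60 in beta-catSD and rose by 1.25 in beta-catSO, and Fzd10 rose by 5.21 in beta-catSO (adjusted p = 1.33e-09), while Fzd8 rose by 1.23 in beta-catSD and fell by 0.58 in beta-catSO.

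Of 19 measured Dishevelled and destruction complex genes (20 listed), Ctnnb1 alone fell in beta-catSD (-0.24, adjusted p = 0.00193), and in beta-catSO Csnk1e, a casein kinase, rose by 0.20 and Btrc, the ubiquitin ligase adaptor for beta-catenin, fell by 0.28. None of 14 measured Wnt ligands and secretion genes (16 listed) was called in beta-catSD with limma (5 had an unadjusted p under 0.05), and 7 rose in beta-catSO, among them Wls, the Wnt cargo receptor, by 0.59, Wnt11 by 0.80 and Wnt5a by 0.73. Of 14 measured secreted antagonists (17 listed), 2 rose in beta-catSD, Dkk1 by 0.96 and Dkk2 by 0.82, and 5 rose and 3 fell in beta-catSO. In beta-catSO Notum, which removes the lipid of Wnt proteins, rose by 8.61 with a wide SE of 0.93 (limma, adjusted p = 2.93e-07). How many reads lay behind the Notum change was not examined. Frzb, a secreted Frizzled-related protein, rose by 1.38 (SE 0.15), while Dkk1 fell by 0.73 and Sfrp5 by 2.03. Kremen1, a membrane receptor for Dkk proteins that the list also holds, rose by 2.33. Of 18 measured nuclear factors (19 listed), 4 rose and 4 fell in beta-catSD, and 5 rose and 3 fell in beta-catSO. Tcf7, a TCF factor, fell by 1.55 in beta-catSD and rose by 3.63 in beta-catSO, and Lef1, of the same family, fell by 3.10 (adjusted p = 4.36e-07) and rose by 3.73 (adjusted p = 2.79e-09). Sp5, a transcription factor of the same list chosen after its values were seen, fell by 2.97 in beta-catSD (adjusted p = 0.00437) and rose by 3.99 in beta-catSO (adjusted p = 5.72e-05). Of 12 other known targets measured (16 listed), Sox9, Nrcam and Cd44 rose and Myc fell in beta-catSD, and 7 rose in beta-catSO, among them Tbx3 by 2.39. The medians of these lists lay between -0.06 and 0.34 in beta-catSD and between 0.01 and 0.70 in beta-catSO.

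Markers of other cells moved with genotype as well. In the mean of the beta-catSD stages 5 of 7 endothelial, 6 of 6 macrophage and 3 of 4 erythroid markers fell. The summed CPM of the endothelial markers was 31.7 to 79.4 in beta-catSD and 36.2 to 148 in wild-type libraries at E12.5, and 42.0 to 66.8 against 100 to 109 at E13.5. That of the macrophage markers was 51.2 to 115 in beta-catSD and 69.2 to 446 in wild-type at E12.5, and 10.4 to 29.6 against 116 to 208 at E13.5. Sums of 7 nephron progenitor markers were 177 to 273 in beta-catSD libraries of both stages and 103 to 141 in C57BL/6 wild-type, with 1 of the 7 called higher. In the mean of the beta-catSO stages 3 of 4 erythroid and 3 of 3 liver markers fell. The summed CPM of the erythroid markers was 58.1 to 965 in beta-catSO and 3180 to 3290 in CD1 wild-type at E12.5, and 72.5 to 572 against 40.2 to 3990 at E13.5. In the other line it was 8.61 to 59.5 in beta-catSD and 564 to 826 in C57BL/6 wild-type at E12.5, and 7.73 to 40.2 against 40.6 to 1170 at E13.5. Sums of the 3 liver markers were 0.235 to 2.86 CPM in beta-catSO libraries, against 179 to 193 in CD1 wild-type at E12.5 and 0.571 to 799 at E13.5. In the beta-catSO line 5 of 8 stromal markers fell and 2 rose in the mean of the stages. The part of these cells in the results was not tested. Without the 3 wild-type libraries chosen on Alb and ureteric markers, the beta-catSD calls of Axin2, Apcdd1 and Tnfrsf19 held. That of Nkd2 at E12.5 was lost (-0.89, adjusted p = 0.0608). All 6 beta-catSO calls at E12.5 held too. At E13.5 only 1 CD1 wild-type library is then left to compare with beta-catSO. The endothelial, macrophage and erythroid markers played no role in the choice of the 3 libraries left out.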

How the data were processed

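The authors deposited 1 table of log2 values for 24 libraries: log2 counts per mega-read (CPM) after TMM scaling with 0.5 added to each count, the scale of limma's voom. HISAT2, HTSeq, limma and the mm10 build are named without versions, per the submitters' processing notes, but the strand of counting and any filter on low genes are unstated. Read numbers were recovered from the deposited log2 values (100% within 0.1 of a whole number). Library sizes recovered in the same way, used as depth, include the TMM scaling and ran from 6.18 to 21.2 M reads. The labels gave the library of every column.

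The values were fitted with limma 3.58.1 in R 4.3.3, with 8 group means over 24 libraries, moderated by empirical Bayes along a mean-variance trend (16 residual and 6.43 prior degrees of freedom, medians). Genes needed a log2 CPM above 0 in at least 3 libraries, which removed none of the 13803. Calls used 2-sided tests and a Benjamini-Hochberg adjusted p, over all genes, under 0.05. Differences between paralogues within a library were tested by exact permutation of libraries within stages (400 arrangements), adjusted over 6 tests. The script was checked on simulated data. The pathway genes named are, for each list, up to 3 called genes of smallest p each way, and the nearest genes are the 3 closest by group means. The members and all lists were chosen with earlier results of these data known, so none of the counts is independent evidence of a direction. Intervals for read sums are exact at 95%. Positions come from GENCODE M21, other loci were searched with BLAST 2.17.0+, and promoter windows come from RefSeq (GRCm38.p6). Protein sequences were not used here. Python 3.11.15 with matplotlib 3.10.9 drew the figures.

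The alternatives tried are in the closing section.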

Additional observations from a re-analysis of the deposited data

Results flagged for a closer look

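Both naked cuticle genes stood out because the effect of the beta-catSO genotype differed between stages, by a test of that difference itself. The log2 change against CD1 wild-type was 3.53 at E13.5 and 2.54 at E12.5 for Nkd1, a difference of 0.993 (limma, adjusted p = 0.00644). For Nkd2 it was 4.71 at E13.5 and 3.17 at E12.5, a difference of 1.536 (adjusted p = 0.0129). Over fits that left out 1 of the 12 libraries of the line, the difference ran from 0.79 to 1.14 for Nkd1 and from 1.35 to 1.75 for Nkd2, and both calls held in each. The Nkd2 call was lost with voom weights (1.52, adjusted p = 0.0718), while the Nkd1 call held there. Without 3 wild-type libraries chosen after seeing the data, the Nkd2 difference was 1.58 and was not called. That fit leaves 1 CD1 wild-type library at E13.5.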

How the results depend on the processing

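The count models edgeR and DESeq2, listed as alternatives, were not run, because the deposited values are log2 values. The calls of Axin2 and all calls of beta-catSO against wild-type held in every fit run. Among these fits, that without 3 wild-type libraries (chosen after seeing the data) leaves only replicate 2 of CD1 wild-type at E13.5. Among member changes, 77 of 77 kept their call with log2(CPM + 1), with quantile normalisation and with a replicate block, and 66 of 66 with a stricter filter, which removed Rnf43. No value changed sign across a call. With voom weights the members called fell in number to 2 in beta-catSD at E12.5, 1 at E13.5, 3 in the mean of the stages and 1 in the beta-catSO stage difference. Leaving out 1 library, members called ranged from 2 to 4 in beta-catSD at E12.5 and from 0 to 1 in each wild-type stage comparison and the strain comparison, and Nkd1 minus Nkd2 in beta-catSD from 0.28 to 0.48, which passed at 0.48 (exact test, adjusted p = 0.0375) without C57BL/6 wild-type E13.5 replicate 2. Rnf43 minus Znrf3 in beta-catSO was -0.93 with log2(CPM + 1) (exact test, adjusted p = 0.045). Same-numbered mutant and wild-type libraries of a stage correlated at -0.143 to 0.276 in their deviations from group means, and 5 of 12 mutant libraries correlated best with their own number, so the numbers were not taken to pair libraries. Libraries were paired by replicate number as a block all the same, in an exact test with few arrangements. The differences Nkd1 minus Nkd2 in beta-catSO (-0.90) and Axin2 minus Axin1 in beta-catSD (-1.02) and beta-catSO (3.58) then had an adjusted exact p of 0.0625.

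Counts over all genes moved more. Without the trend they were 76 in the beta-catSO stage difference (183 as reported), 298 in the C57BL/6 stage comparison (546) and 407 between strains (616), and with only the libraries compared 262 and 291 in the last 2. With voom weights they were 193 in beta-catSD at E13.5 (469) and 643 in the mean of the stages (990). With the ureteric covariate, also chosen after seeing the data, they were 2 in the beta-catSD stage difference (0) and 163 between strains. Without the 3 wild-type libraries they were 377 in beta-catSD at E12.5 (237) and 29 in the beta-catSD stage difference. Those in beta-catSO at E13.5 (2120) and in the CD1 stage comparison (748) moved too. They are not given, since 1 CD1 wild-type library is then left at E13.5. Leaving out 1 library, they ranged from 92 to 395 in beta-catSD at E12.5, 244 to 370 at E13.5, 720 to 883 in beta-catSO at E12.5 (1127), 61 to 532 in its stage difference, 0 to 23 in that of beta-catSD, 83 to 605 and 290 to 785 in the C57BL/6 and CD1 stage comparisons, and 233 to 1007 between strains. Pathway list counts moved by over 1.5 times in beta-catSO with the stricter filter (Wnt ligands and secretion 4, secreted antagonists 5). They did so for Dishevelled and destruction complex genes with quantile normalisation, without the trend and with the covariate (1 each). In beta-catSD other known targets had 1 call with voom weights, Wnt ligands 1 with the covariate and Dishevelled and destruction complex genes 2 without the 3 libraries. Leaving out 1 library, the counts in beta-catSD ranged from 2 to 5 for secreted antagonists (2), 2 to 5 for other known targets (4) and 0 to 2 for Wnt ligands (0), and in beta-catSO from 1 to 2 for Dishevelled and destruction complex genes (2). The cause was not tested. Depth limits Rnf43, for which 3 reads are 0.142 to 0.486 CPM in a library.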
